A study of Mus musculus with 14 samples.

Results

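The tumour necrosis factor (TNF) module comprised 51 genes of 12393 that had an array probeset with a single gene symbol. They were chosen by symbol: names beginning with Tnf or Traf, together with Fas, Fasl, Cd40, Cd27, Ltbr, Lta, Ltb, Tradd, Fadd and Casp8. Ripk1, which the same rule names, had no single-symbol probeset and was not analysed here. Each gene was represented by its brightest probeset over the 14 arrays, and 18 of the genes had more than 1 probeset. The data are expression arrays of total RNA from mouse tumours, to ask which transcripts depend on HIF-2α, a hypoxia-inducible transcription factor (gene Epas1). The labels do not say whether each array is a separate tumour or animal. The tested mice (n = 7 arrays) are labelled both Hif2alpha deficient and Hif 2alpha knockdown, and the comparison mice (n = 7 arrays) are labelled control. All had a mixed 129 SvJ/C57Bl6 background. The deleted part of Epas1, the driver of its deletion, the initiating oncogene, the organ and the ages are not given in the sources used here, although the study is known for work on lung tumours.

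TNF superfamily ligands are membrane or secreted trimers that bind cysteine-rich receptors. Receptors with a death domain, such as Fas and TNF receptor 1, recruit the adaptors FADD and TRADD, through which caspase-8 starts apoptosis. Other receptors, such as CD40, bind TRAF adaptors, which lead to NF-κB and kinase signalling. In lung, TNF family signals pass between epithelium, macrophages and lymphocytes.

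Levels are log2 values made by the authors with GCRMA, in which background piles up near 2.1. A level of 4 served as the lower limit of signal, and a gene was tested if it lay above 4 in at least 7 of the 14 arrays. Array medians were 5.13 to 5.21 in deficient tumours and 5.19 to 5.30 in controls. The alveolar type II gene Sftpa1 averaged 13.94 ± 0.19 in deficient tumours and 13.98 ± 0.11 in controls (SD, n = 7 each). Epas1 itself ran from 4.88 to 6.38, with a median of 5.75, in deficient tumours and from 4.65 to 6.499, with a median of 6.13, in controls (log2 difference -0.19, SE 0.30, limma adjusted p = 0.807). The array descriptions carry 6 leading numbers of unstated meaning, 4 among deficient arrays and 2 among controls, so arrays may not be independent. Deficient 1 and 5 share a number, as do deficient 3 and 6, deficient 4 and 7, control 1 and 4, and the other 5 controls. Most airway markers moved with the groups. Of the 9 tested club and secretory genes 8 were lower in deficient tumours. The other, the club cell gene Scgb1a1, was the brightest of the list and averaged 13.84 in deficient tumours and 13.78 in controls. The mean level of the 10 listed genes ran from 7.45 to 8.75 in deficient tumours and from 8.67 to 12.19 in controls. All 6 tested ciliated cell genes were lower, with a mean level over 8 listed genes of 4.46 to 6.99 in deficient tumours and 5.98 to 8.67 in controls. The part of these cells in the results below was not tested. In such bulk tissue, fewer cells of a type and less RNA per cell cannot be told apart.

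Many members gave no signal in these tumours. Of the 51 genes, 24 were tested and 27 (52.9%) were left out by the limit on low values, against 43.9% of all probesets. These shares differ in unit, because each member counts by its brightest probeset alone. Counted by probeset, 28 of the 74 probesets of the members were tested. The 27 genes left out comprised 21 that never exceeded 4 in any array and 6 that exceeded it in 1 to 6 arrays. Only 2 of 11 ligands were tested, Tnfsf9 and Tnfsf13b, against all 3 genes of the death adaptors and caspase-8 and 6 of 8 TRAF genes. Tnf itself ran from 2.23 to 2.495, with a median of 2.45, in deficient tumours and from 2.22 to 3.04, with a median of 2.56, in controls. Fasl, the ligand of Fas, lay between 2.15 and 2.18 in every array. The NF-κB inhibitor gene Tnfaip3 lay at 2.14 in every array. Probesets at this floor hold a bound, not a level, and say nothing about whether the RNA differed.

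**Figure D1:**
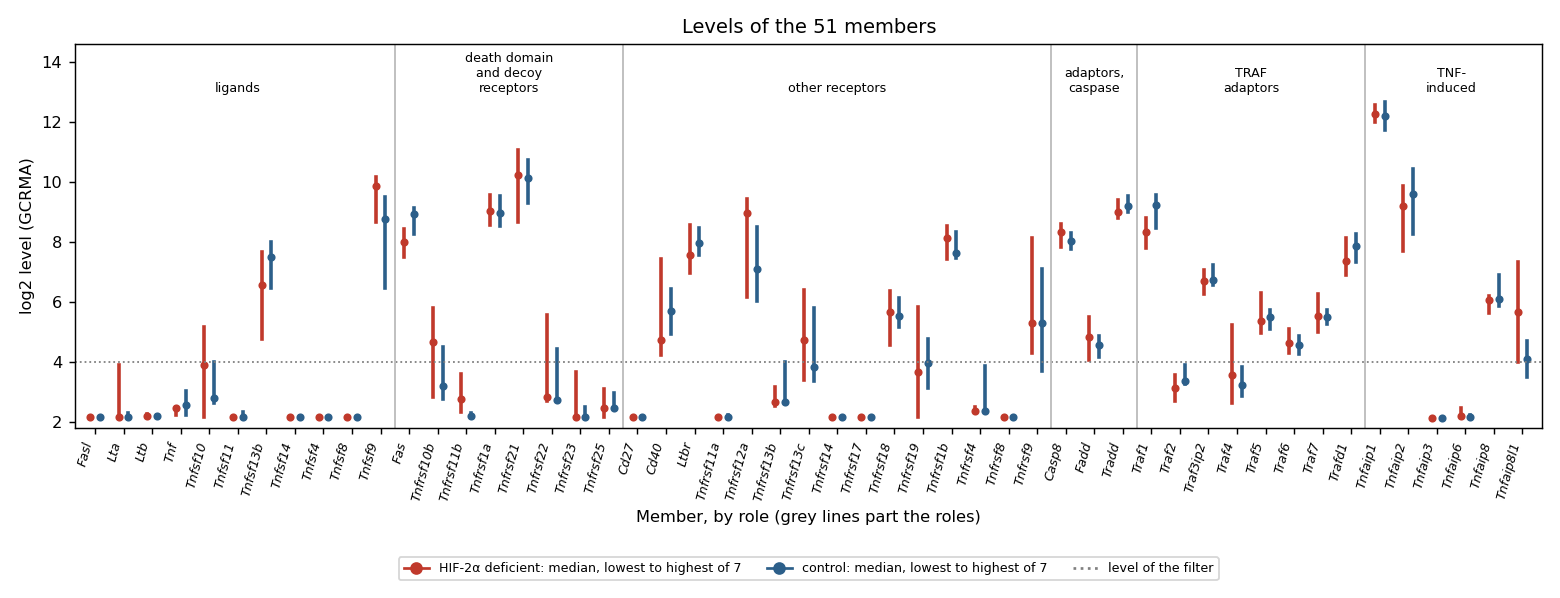
Log2 levels of the 51 members by role, with the median (point) and the lowest to highest array (bar) of 7 deficient arrays on the left and 7 controls on the right of each pair. Of 11 ligands, 2 lay above the dotted filter level of 4 in at least 7 arrays, Tnfsf13b and Tnfsf9. The caspase gene Casp8 and the adaptors Fadd and Tradd were above it in all 14 arrays.

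No member passed the threshold of an adjusted p under 0.05 (0 of 24 by limma, where 0.0394% of all 12701 tested probesets passed). At an unadjusted p under 0.05 there were 5 members (20.8%, where 14.7% of all tested probesets had such a p). Of these, 2 were higher in deficient tumours, Tnfaip8l1 and Tnfsf9, against a background of 8.09% in that direction, and 3 were lower, Traf1, Fas and Tnfsf13b, against 6.57%. Over the 24 members 13 were higher and 11 lower, with a median log2 difference of 0.02, equal to the 0.02 over all tested probesets. An exact permutation test, with 3432 ways to divide the arrays, put the same 5 members under 0.05. When leading numbers entered as a random block, 2 members, Traf1 and Fas, kept an unadjusted p under 0.05, where 4.72% of all tested probesets had one, and every one of the 24 had an adjusted p of at least 0.989. The count at an unadjusted p under 0.05 was 8 without control 4, where 18.8% of all tested probesets had one, and 8 without deficient 1, where 18.2% did. Without control 4, Traf1 alone passed the adjusted threshold (1 of 24, where 0.669% of all tested probesets passed). At a looser adjusted p under 0.25 there were 3 members, Traf1, Fas and Tnfaip8l1, where 7.50% of all tested probesets fell under it. Weighting the arrays by their estimated precision put 9 of 24 members under an adjusted p of 0.05, where 15.0% of all tested probesets passed, and 11 under an unadjusted p of 0.05, where 32.3% did.

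**Figure D2:**
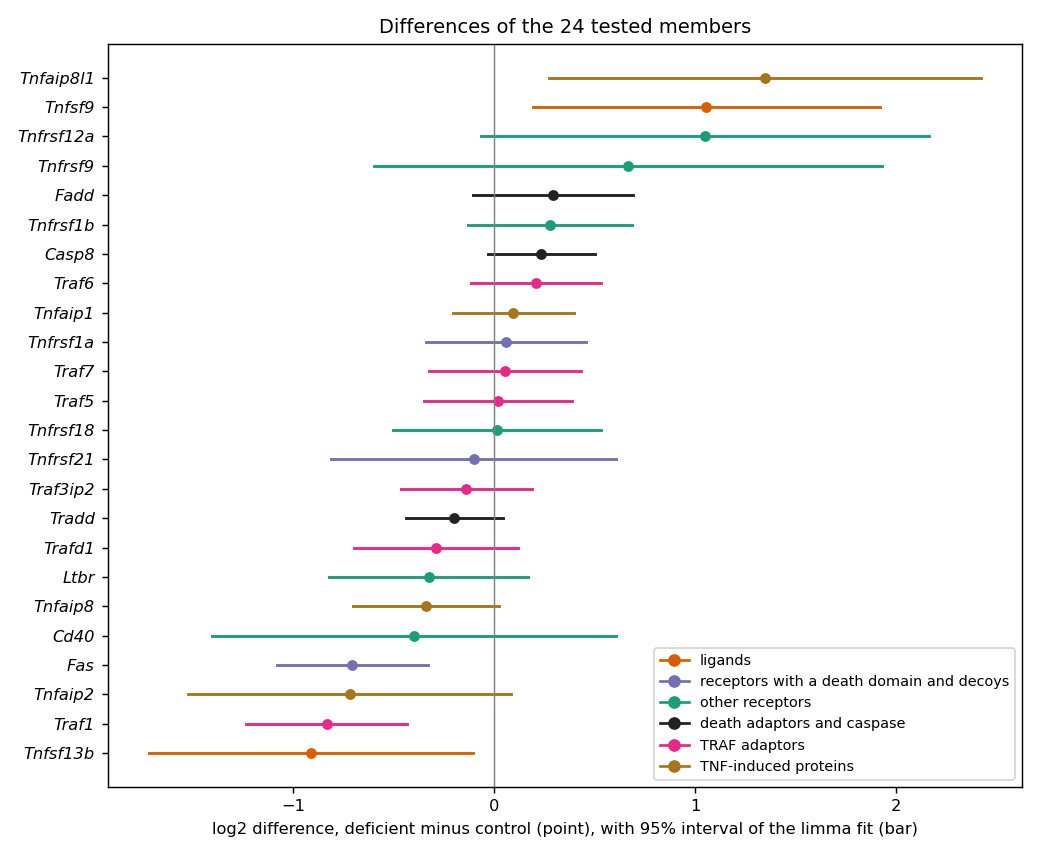
Log2 differences (deficient minus control) of the 24 tested members with the 95% interval of the limma fit, coloured by role. The intervals of Traf1, Fas, Tnfsf13b, Tnfsf9 and Tnfaip8l1 leave out 0, and after adjustment over all tested probesets none of the 24 passed.

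Traf1 and Fas had the smallest p-values. Traf1 encodes an adaptor that joins receptor complexes with TRAF2 and is itself induced by NF-κB. It ran from 7.80 to 8.78, with a median of 8.35, in deficient tumours and from 8.47 to 9.56, with a median of 9.22, in controls. All 7 deficient arrays lay below the control mean and 4 lay below every control, although the groups overlapped through control 4, the lowest control. The difference on the log2 scale was -0.83 (SE 0.19, 95% interval -1.24 to -0.43, a ratio of 0.561), with an unadjusted p of 0.000529, an exact permutation p of 0.00233 and a limma adjusted p of 0.122. The leave-one-out adjusted p ran from 0.0475 without control 4 to 0.278.

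Fas encodes the death receptor that FasL engages. It ran from 7.49 to 8.44, with a median of 8.002, in deficient tumours and from 8.27 to 9.12, with a median of 8.92, in controls. Again all 7 deficient arrays lay below the control mean and 4 below every control. Controls 4 and 5 reached into the deficient range. Its log2 difference came to -0.71 (SE 0.18, 95% interval -1.08 to -0.33, a ratio of 0.613), with an exact permutation p of 0.00524 and a limma adjusted p of 0.132. With the leading number as a block the difference was -0.66 for Fas and -0.76 for Traf1.

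Tnfaip8l1 spread most among deficient arrays of the 5. It belongs to the TNFAIP8 family of lipid-binding regulators of cell death. Its level ran from 4.01 to 7.33, with a median of 5.67, in deficient tumours and from 3.503 to 4.69, with a median of 4.11, in controls. Deficient 2, 3, 4 and 6 lay above every control, while deficient 1, 5 and 7, at 4.06, 4.15 and 4.01, lay among the controls. The log2 difference was 1.35 (SE 0.50, 95% interval 0.28 to 2.42), with an exact permutation p of 0.0443 and a limma adjusted p of 0.243. Controls lay near the limit of signal, 5 of 7 above 4, and the part of the floor in this difference was not tested.

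Because HIF-2α binds DNA directly, the promoters of these 3 members are shown. They are RefSeq windows of GRCm38.p6, 300 bases each around the start of the gene, written 5′ to 3′ on the gene's strand. Capitals mark the core letters of the hypoxia response element, ACGTG or GCGTG, searched on both strands, and the κB consensus, also on both strands, which shared no base with the first. Traf1 lies on the minus strand at chr2:34961723-34962022, Fas on the plus strand at chr19:34290409-34290708 and Tnfaip8l1 on the plus strand at chr17:56162241-56162540.
Traf1: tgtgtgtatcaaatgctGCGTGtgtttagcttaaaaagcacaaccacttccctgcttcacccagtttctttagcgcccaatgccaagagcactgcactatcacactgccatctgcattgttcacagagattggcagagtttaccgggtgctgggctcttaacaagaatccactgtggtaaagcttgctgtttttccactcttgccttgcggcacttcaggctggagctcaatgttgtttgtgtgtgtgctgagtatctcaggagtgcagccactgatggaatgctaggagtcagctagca
Fas: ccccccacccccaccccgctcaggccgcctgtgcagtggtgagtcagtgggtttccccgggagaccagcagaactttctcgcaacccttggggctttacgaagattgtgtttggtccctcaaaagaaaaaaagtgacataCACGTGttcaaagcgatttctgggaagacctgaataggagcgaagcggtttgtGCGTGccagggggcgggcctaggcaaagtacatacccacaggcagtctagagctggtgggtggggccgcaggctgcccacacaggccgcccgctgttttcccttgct
Tnfaip8l1: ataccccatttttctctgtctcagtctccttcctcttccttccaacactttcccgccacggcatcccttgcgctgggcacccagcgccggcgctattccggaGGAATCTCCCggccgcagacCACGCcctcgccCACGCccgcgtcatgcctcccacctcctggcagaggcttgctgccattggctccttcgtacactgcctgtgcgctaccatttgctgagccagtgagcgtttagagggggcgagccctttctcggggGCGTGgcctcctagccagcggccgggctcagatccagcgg

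The Traf1 window held 1 core match, the Fas window 3 and the Tnfaip8l1 window 3. Both ACGTG matches of Fas, 1 on each strand, overlap in the palindrome CACGTG. Only the Tnfaip8l1 window of these 3 held a κB match, on the opposite strand. Promoters were found for 42 of the 51 members in 48 windows, of which 60.4% held a core match and 10.4% a κB match. Of all 32851 promoter windows 43.8% held a core match and 4.51% a κB match. These matches are descriptions of letters and were not tested as sites. Traf1 and Fas were lower in the deficient tumours and Tnfaip8l1 was higher, and core letters stood in all 3.

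**Figure D3:**
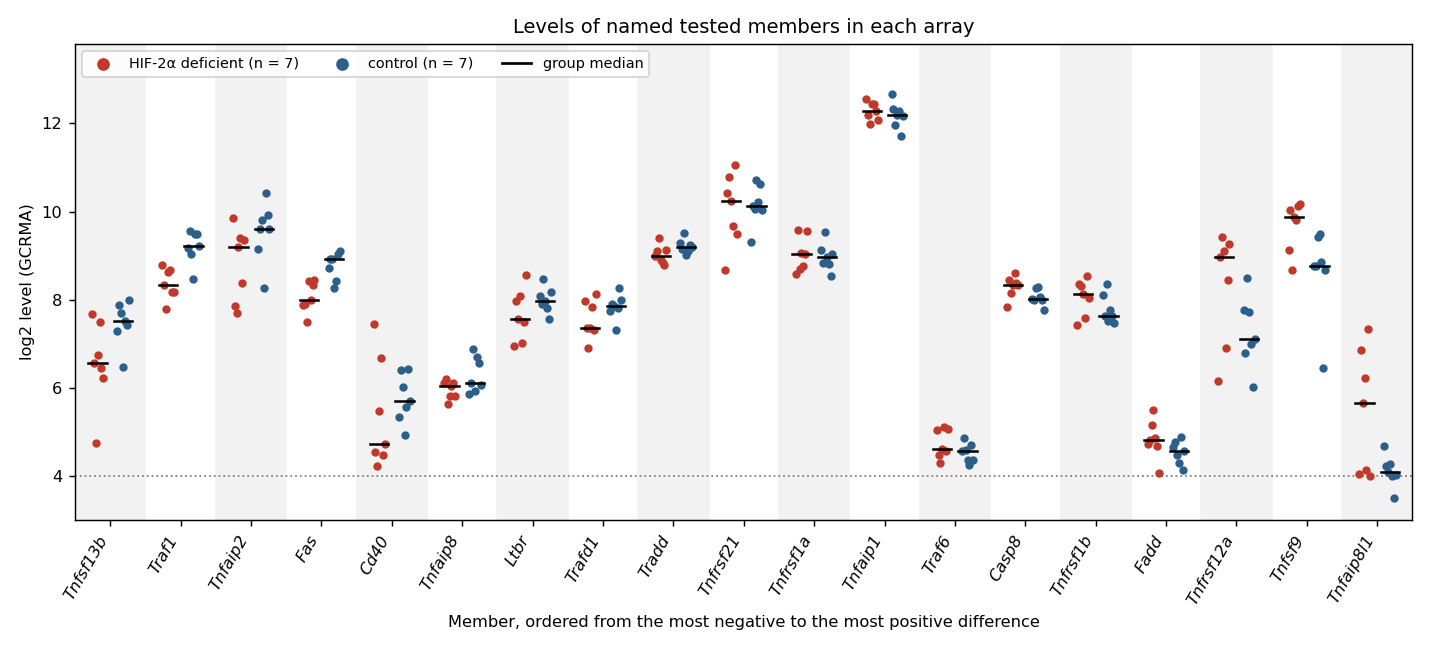
Log2 level of each named tested member in 7 deficient arrays (left of each pair) and 7 controls (right), with the group median as a bar and the filter level of 4 dotted. Traf1 and Fas lie lower in most deficient arrays, whereas Tnfaip8l1, Tnfrsf12a and Cd40 split within the deficient group.

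Among the ligands, Tnfsf9 was higher and Tnfsf13b lower. Tnfsf9 encodes 4-1BBL, which costimulates T cells through 4-1BB. It ran from 8.68 to 10.17, with a median of 9.87, in deficient tumours and from 6.46 to 9.48, with a median of 8.77, in controls. All 7 deficient arrays lay above the control mean and 5 above every control. The difference on the log2 scale was 1.06 (SE 0.40, 95% interval 0.20 to 1.92, exact permutation p = 0.0152, limma adjusted p = 0.252). Control 6, at 6.46, stood apart from the other controls, and without it the difference was 0.70.

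The receptor of 4-1BBL, Tnfrsf9, ran from 4.29 to 8.13, with a median of 5.29, in deficient tumours and from 3.69 to 7.09, with a median of 5.29, in controls (log2 difference 0.67, SE 0.59, limma adjusted p = 0.640). The high arrays were deficient 3 and 6, at 7.53 and 8.13, and control 3, at 7.09.

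Tnfsf13b encodes BAFF, a survival factor for B cells made largely by myeloid and stromal cells. It ran from 4.76 to 7.67, with a median of 6.56, in deficient tumours and from 6.47 to 7.99, with a median of 7.51, in controls. Deficient 3 was the lowest array, and deficient 3, 6 and 7 lay below every control. Deficient 1 and 5, at 7.67 and 7.498, were the highest of the deficient arrays. Its log2 difference came to -0.91 (SE 0.38, 95% interval -1.72 to -0.10, exact permutation p = 0.0396, limma adjusted p = 0.288). Of the 15 tested macrophage genes 13 were lower, and the mean level of the 16 listed ran from 8.48 to 9.04 in deficient tumours and from 8.54 to 9.75 in controls. None of those 16 stayed at or under 4 in every array. Of the 9 tested fibroblast genes 8 were lower, and the mean level of the 10 listed ran from 7.20 to 9.24 in deficient tumours and from 8.84 to 9.73 in controls, with Lum at or under 4 in every array. Deficient 3, the array with the lowest BAFF value, was the lowest for both lists. Its macrophage mean of 8.48 was close to the 8.49 of deficient 2, where Tnfsf13b read 6.56. In deficient 6, where Tnfsf13b read 6.44, the macrophage mean was 9.02 and the fibroblast mean 8.29. The part of either cell type in the BAFF value was not tested.

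The BAFF receptor Tnfrsf13c was above 4 in 4 of 7 deficient arrays and 2 of 7 controls, and was not tested. It ran from 3.39 to 6.40, with a median of 4.71, in deficient tumours and from 3.38 to 5.81, with a median of 3.83, in controls. The highest arrays were deficient 3 and control 3. Both other receptors of this axis, Tnfrsf13b (TACI) and Tnfrsf17 (BCMA), stayed at or under 4 in every array. Of 7 B and plasma cell genes measured, Pax5 stayed at or under 4 in every array. Their mean level ran from 5.66 to 7.12 in deficient tumours and from 6.00 to 6.94 in controls. It was highest in deficient 1 and control 7, where Tnfrsf13c read 4.79 and 4.32. Deficient 3 and control 3 came next, at 6.98 and 6.94. Of the 4 tested genes 2 were lower in deficient tumours, Ighm (log2 difference -1.85) and Jchain (-0.75), and 2 were higher, Cd79b (0.32) and Ms4a1 (0.78). The part of B cell content in the Tnfrsf13c values was not tested.

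TWEAK (Tnfsf12) and APRIL (Tnfsf13) share probesets that name several genes and are not members. The probeset named for both and for their fusion transcript Tnfsfm13 ran from 8.48 to 9.30, with a median of 8.65, in deficient tumours and from 8.79 to 10.10, with a median of 9.32, in controls. Its log2 difference was -0.55 (SE 0.19, unadjusted p = 0.0119, limma adjusted p = 0.218). That of the probeset without Tnfsf13 was -0.24 (SE 0.13, limma adjusted p = 0.427).

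Fn14 (Tnfrsf12a), the receptor of TWEAK, is induced in injured and growing epithelium. It ran from 6.16 to 9.42, with a median of 8.96, in deficient tumours and from 6.02 to 8.496, with a median of 7.10, in controls. Deficient 2, 3, 4 and 7 lay above every control, and deficient 1 and 5 were the only deficient arrays below the control mean. The log2 difference was 1.05 (SE 0.52, 95% interval -0.06 to 2.16, limma adjusted p = 0.370), and its other tested probeset gave 1.00 (SE 0.48, limma adjusted p = 0.351).

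The remaining death receptors were examined with the decoys. Tnfrsf1a, which encodes TNF receptor 1, ran from 8.57 to 9.58, with a median of 9.05, in deficient tumours and from 8.55 to 9.54, with a median of 8.97, in controls. The ranges of the groups nearly coincided, and the log2 difference was 0.06 (SE 0.19, 95% interval -0.34 to 0.46, limma adjusted p = 0.911), a value whose sign turned without control 6, deficient 2 or deficient 7. Tnfrsf21, which encodes death receptor 6, ran from 8.68 to 11.06, with a median of 10.24, in deficient tumours and from 9.30 to 10.72, with a median of 10.12, in controls. Its log2 difference was -0.10 (SE 0.33, limma adjusted p = 0.919) and turned to 0.13 without deficient 1, the lowest array, and to 0.18 with array weights.

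Tnfrsf10b encodes the mouse death receptor for TRAIL. It ran from 2.84 to 5.81, with a median of 4.68, in deficient tumours and from 2.75 to 4.48, with a median of 3.19, in controls. It lay above 4 in 4 of 7 deficient arrays, deficient 2, 3, 4 and 6, and in 1 of 7 controls, control 3. With 5 arrays above 4 it was not tested. Tnfsf10, which encodes TRAIL, ran from 2.17 to 5.16, with a median of 3.89, in deficient tumours and from 2.63 to 3.99, with a median of 2.79, in controls. Its 2 values above 4 were those of deficient 1 and 5, where Tnfrsf10b read 2.84 and 3.001. Just under 4 lay control 2 at 3.99, deficient 7 at 3.98 and deficient 4 at 3.89, where Tnfrsf10b read 4.765. Whether ligand and receptor signal fall in different arrays therefore hangs on the limit of 4.

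Osteoprotegerin (Tnfrsf11b), a secreted decoy receptor for RANKL and TRAIL, was the only member whose groups did not overlap. It ran from 2.32 to 3.58, with a median of 2.76, in deficient tumours and from 2.17 to 2.31, with a median of 2.19, in controls. All 14 values lay under 4, in the range where GCRMA sets the background, so it was not tested in the comparison above. Of all probesets left out for low values, 0.101% had groups that did not overlap. Among the 24 tested members 0 had groups that did not overlap, where 0.496% of all tested probesets did. With no filter the osteoprotegerin difference was 0.70 (SE 0.20, limma adjusted p = 0.249), and its other probeset stayed at or under 2.20. Tnfrsf22 and Tnfrsf23, decoy receptors for TRAIL in mice, had their highest values in deficient 3, at 5.55 and 3.66. Control 3 was the highest control for both, at 4.43 and 2.502.

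Apart from Tnfrsf12a and Tnfrsf9, the 4 tested receptors without a death domain gave log2 differences between -0.40 and 0.28, each with an interval that holds 0. Cd40, the receptor of T cell help on B cells, macrophages and epithelium, ran from 4.24 to 7.44, with a median of 4.73, in deficient tumours and from 4.94 to 6.43, with a median of 5.70, in controls. Deficient 1 and 5, at 7.44 and 6.69, lay above every control, while deficient 2, 3, 6 and 7 lay below every control. The difference on the log2 scale was -0.40 (SE 0.47, 95% interval -1.40 to 0.61, limma adjusted p = 0.730), or 0.01 without deficient 3 and 6. Tnfrsf1b, which encodes TNF receptor 2, ran from 7.44 to 8.54, with a median of 8.13, in deficient tumours and from 7.47 to 8.35, with a median of 7.64, in controls (difference 0.28, SE 0.19, limma adjusted p = 0.531).

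Ltbr, the lymphotoxin β receptor gene, ran from 6.96 to 8.55, with a median of 7.57, in deficient tumours and from 7.56 to 8.47, with a median of 7.96, in controls (difference -0.33, SE 0.23, limma adjusted p = 0.546). Its ligand genes Lta and Ltb stayed under 4 in every array, with Lta at 3.89 in deficient 3. Tnfrsf18, which encodes the T cell receptor GITR, differed by 0.01 (SE 0.24, limma adjusted p = 0.986). Tnfrsf19, which encodes the receptor TROY, was above 4 in deficient 1, 4 and 5 and in 3 of 7 controls and was not tested. It read 5.66 and 5.84 in deficient 1 and 5, against 2.15 and 2.16 in deficient 3 and 6.

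The death-signalling adaptors and caspase-8 gave no difference with an unadjusted limma p under 0.05 in the main comparison. Casp8, the initiator caspase of death receptors, ran from 7.82 to 8.60, with a median of 8.34, in deficient tumours and from 7.76 to 8.29, with a median of 8.03, in controls. Of the deficient arrays 5 lay above every control, and the log2 difference was 0.24 (SE 0.12, 95% interval -0.03 to 0.50, exact permutation p = 0.0693, limma adjusted p = 0.399). With array weights it was 0.35 (limma adjusted p = 0.0307), a setting in which 15.0% of all tested probesets passed. Fadd, which bridges Fas to caspase-8, ran from 4.08 to 5.49, with a median of 4.83, in deficient tumours and from 4.15 to 4.88, with a median of 4.57, in controls (difference 0.29, SE 0.19, limma adjusted p = 0.491). Tradd, the adaptor of TNF receptor 1, ran from 8.80 to 9.40, with a median of 9.001, in deficient tumours and from 9.01 to 9.52, with a median of 9.19, in controls (difference -0.20, SE 0.11, limma adjusted p = 0.436). The Casp8 and Fadd differences were positive and that of Tradd negative, and the groups overlapped for each gene.

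Apart from Traf1, TRAF genes gave no difference with an unadjusted p under 0.05. Traf6, the adaptor and ubiquitin ligase shared with Toll-like receptor signalling, ran from 4.30 to 5.11, with a median of 4.63, in deficient tumours and from 4.25 to 4.88, with a median of 4.58, in controls (difference 0.21, SE 0.15, limma adjusted p = 0.554). Trafd1, a gene that restrains innate signalling, ran from 6.91 to 8.13, with a median of 7.36, in deficient tumours and from 7.32 to 8.28, with a median of 7.86, in controls (difference -0.29, SE 0.19, limma adjusted p = 0.511). Traf5, Traf7 and Traf3ip2, an adaptor of the IL-17 receptor, differed by 0.02, 0.06 and -0.14. Traf2, the main TRAF of TNF receptor 1, was not tested. It ran from 2.70 to 3.57, with a median of 3.12, in deficient tumours and from 3.25 to 3.90, with a median of 3.37, in controls, all below 4. Traf4 exceeded 4 in deficient 2 and 3, at 4.23 and 5.24, and in no control.

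Genes named for induction by TNF did not move one way. Tnfaip2, which encodes a protein of cell protrusions, ran from 7.70 to 9.85, with a median of 9.19, in deficient tumours and from 8.26 to 10.42, with a median of 9.60, in controls (difference -0.72, SE 0.38, limma adjusted p = 0.394). Tnfaip8, a relative of Tnfaip8l1, ran from 5.64 to 6.21, with a median of 6.05, in deficient tumours and from 5.87 to 6.88, with a median of 6.11, in controls (difference -0.34, SE 0.17, limma adjusted p = 0.372). Tnfaip1, which encodes a cullin 3 substrate adaptor, ran from 11.98 to 12.56, with a median of 12.28, in deficient tumours and from 11.72 to 12.67, with a median of 12.19, in controls (difference 0.10, SE 0.14, limma adjusted p = 0.791). Its other tested probesets differed by 0.14 and 0.05. Tnfaip6 stayed at the floor.

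Several members split within the deficient group, in part along the leading numbers. Deficient 1 and 5, which share one, averaged 7.06 for Cd40, 9.63 for Tnfaip2 and 7.58 for Tnfsf13b. Deficient 3 and 6 averaged 4.36, 8.04 and 5.60 for the same genes. Conversely, Tnfrsf12a averaged 6.54 in deficient 1 and 5 and 8.93 in deficient 3 and 6. Tnfrsf10b averaged 2.92 and 5.24 in those pairs, and Tnfaip8l1 averaged 4.10 and 6.499. These pairs were singled out after their values were seen.

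Arrays with the same leading number also differed from each other. Tnfaip8l1 read 6.23 in deficient 4 and 4.01 in deficient 7, and Tnfrsf10b read 4.76 and 3.34 in the same arrays. In deficient 3 and 6, Tnfsf13b read 4.76 and 6.44 and Fas read 7.49 and 8.34. Traf1 averaged 8.73 in deficient 1 and 5, 8.35 in deficient 2, 7.99 in deficient 3 and 6 and 8.403 in deficient 4 and 7, against 8.82 in control 1 and 4 and 9.36 in the other 5 controls. Fas averaged 7.94, 7.90, 7.92 and 8.43 in those deficient sets, against 8.499 and 8.88 in those control sets. For both genes the closest sets of the groups lay near each other.

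Markers of several cell types split between the same pairs of deficient arrays. The mean level of endothelial genes was 8.46 and 8.21 in deficient 1 and 5 and 5.26 and 5.45 in deficient 3 and 6, against 7.09 to 8.17 in controls. Alveolar type I genes read 10.68 and 10.81 in deficient 1 and 5 and 8.70 and 8.92 in deficient 3 and 6, against 10.34 to 11.15 in controls. Ciliated cell genes read 6.99 and 6.49 in deficient 1 and 5 and 4.46 and 4.48 in deficient 3 and 6. Fibroblast genes read 9.03 and 9.24 in deficient 1 and 5 and 7.20 and 8.29 in deficient 3 and 6, against 8.84 to 9.73 in controls. Other lists did not part these pairs. Macrophage genes read 8.99 and 9.04 in deficient 1 and 5 and 8.48 and 9.02 in deficient 3 and 6. Club and secretory genes read 8.62 and 7.88 in the first pair and 7.84 and 8.75 in the second. The part of these cell types in the spread of the members was not tested.

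**Figure D4:**
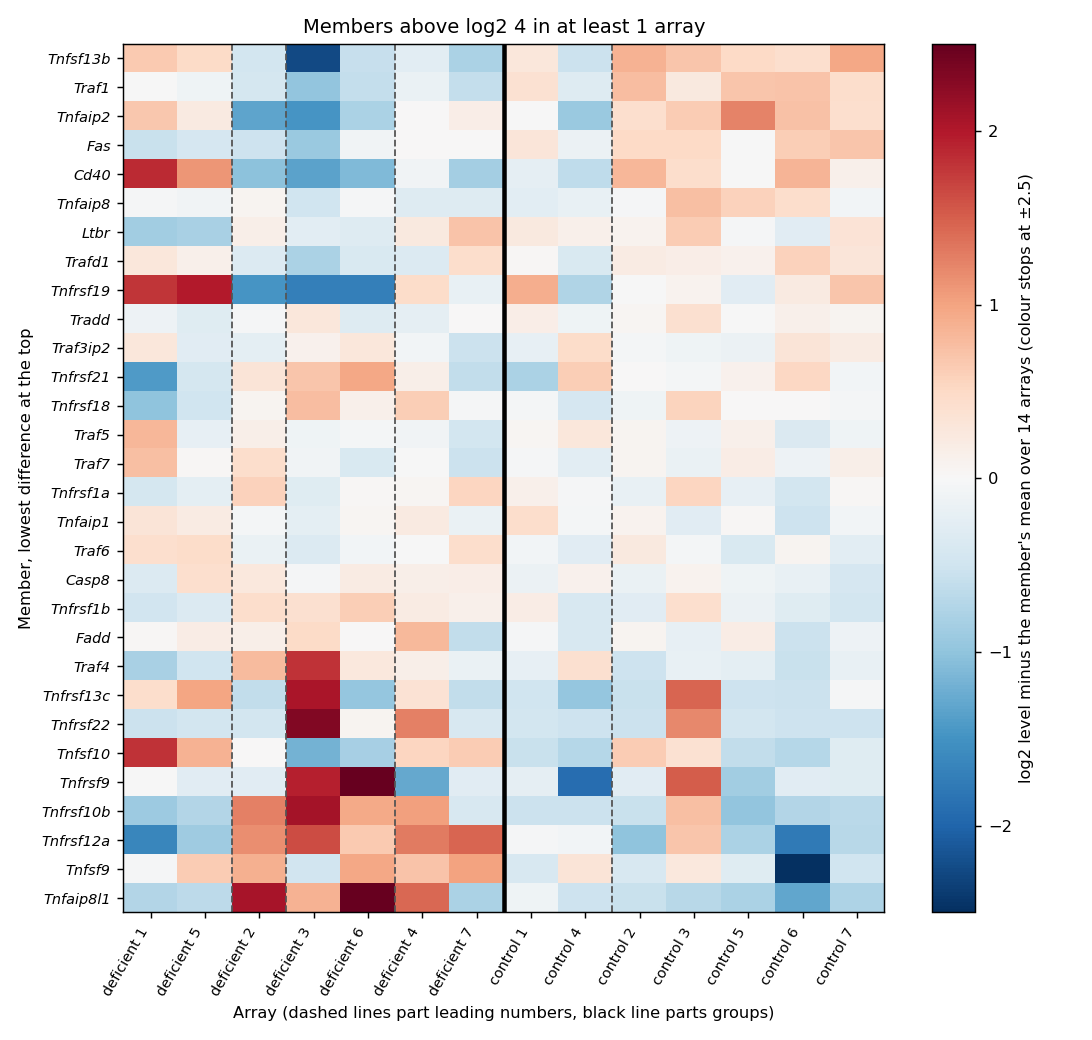
Log2 level minus the member's mean over 14 arrays, for the 30 members above 4 in at least 1 array, with deficient arrays left of the black line and controls right of it, and dashed lines parting the leading numbers. Deficient 1 and 5 are high for Cd40, Tnfrsf19 and Tnfsf10 and low for Tnfrsf12a and Tnfrsf10b, while deficient 3 and 6 show the opposite colours.

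Genes around the receptors were described from 5 lists. Of 51 tested genes in these lists 0 passed the adjusted threshold by limma, where 0.0394% of all tested probesets did, and the lowest adjusted p was 0.315. At an unadjusted p under 0.05 there was 1 gene, where 14.7% of all tested probesets had such a p. That count was 7 without control 4 (18.8% of all tested probesets), 6 without deficient 1 (18.2%) and 13 with array weights (32.3%). Array weights put 6 of the 51 past the adjusted threshold, where 15.0% of all tested probesets passed. The 1 gene of the main comparison was Edar, the ectodysplasin receptor, a family member outside the symbol rule. It averaged 4.43 in deficient tumours and 5.29 in controls (difference -0.86, SE 0.38, limma adjusted p = 0.315). Cd40lg, Cd70, Eda, Edaradd and Ngfr stayed at or under 4 in every array.

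The 15 death receptor effectors and inhibitors comprised 9 higher and 6 lower genes, with a median difference of 0.04, against 0.02 over all tested probesets. Ripk3, the kinase of necroptosis, averaged 4.93 in deficient tumours and 4.29 in controls (difference 0.64, SE 0.32, limma adjusted p = 0.375), and the initiator caspase gene Casp9 differed by 0.17 (SE 0.11). Dap, the brightest of the list, differed by -0.01 (SE 0.15). Cflar, which encodes the caspase-8 inhibitor c-FLIP, was not in the naming rule and was looked up afterwards (-0.04, SE 0.16).

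The 10 ubiquitin regulators comprised 4 higher and 6 lower genes, with a median of -0.02. Otud7b, a deubiquitinase that limits noncanonical NF-κB, differed by -0.38 (SE 0.22, limma adjusted p = 0.436), Tbk1 by 0.21 (SE 0.15) and Ube2n by 0.10 (SE 0.17). Among 12 NF-κB kinases, inhibitors and subunits 8 were higher and 4 lower, with a median of 0.04. Tab3 differed by 0.26 (SE 0.14), Map3k1 by 0.19 (SE 0.11) and the inhibitor gene Nfkbia by 0.05 (SE 0.12).

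Inducible targets of TNF and NF-κB comprised 8 higher and 5 lower genes of 13 tested, with a median of 0.05. Gadd45b, a stress gene, averaged 8.43 in deficient tumours and 9.13 in controls (difference -0.70, SE 0.37, limma adjusted p = 0.399). Cxcl1, a neutrophil chemokine gene, averaged 6.90 in deficient tumours and 5.58 in controls (difference 1.32, SE 0.74, limma adjusted p = 0.426), and Lcn2 differed by 0.05 (SE 0.15). No direction common to the lists was measured. Medians lay near 0 in each list of more than 1 tested gene, as did the module's own median of 0.02. Whether Traf1 and Fas stand out from the genes of these lists was not tested.

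**Figure D5:**
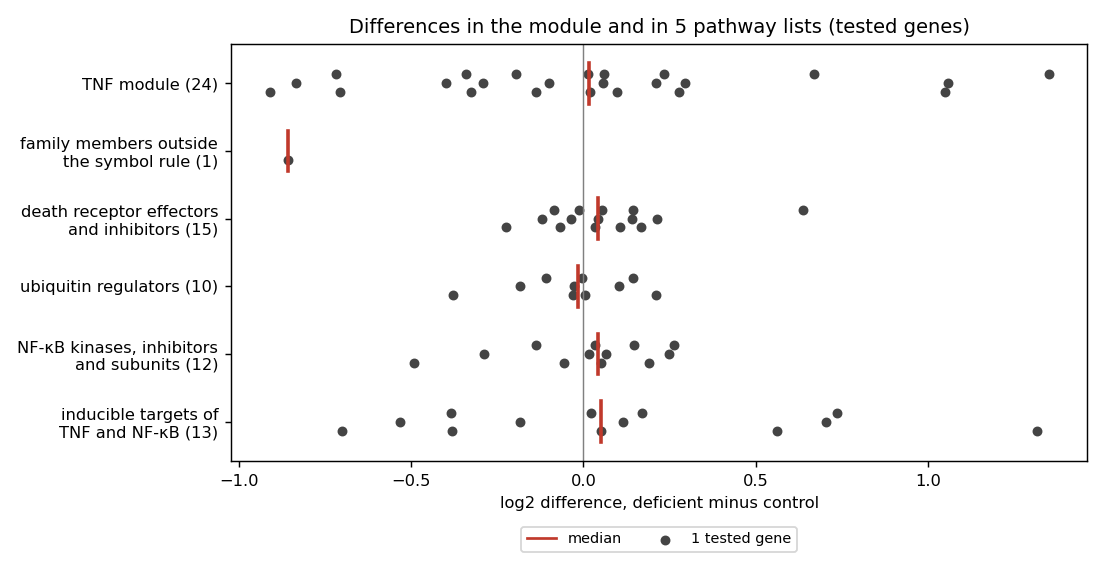
Log2 differences (deficient minus control) of tested genes in the TNF module and in 5 pathway lists, 1 point a gene, with the median in red and the number tested in brackets. The module's median is 0.02, and medians of the lists with more than 1 gene lie between -0.02 and 0.05. Single genes spread from -0.91 to 1.35 in the module and from -0.86 (Edar) to 1.32 (Cxcl1) in the lists.

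T cell genes give the setting for the costimulatory members. All 5 tested T cell markers were lower in deficient tumours, and their list of 9 had a mean level of 3.80 to 4.605 in deficient tumours and 4.04 to 5.31 in controls. Cd4, Cd5, Cd8a and Cd8b1 stayed at or under 4 in every array, while Cd2 averaged 6.41 in deficient tumours and 7.70 in controls (difference -1.30, SE 0.60, limma adjusted p = 0.332) and Cd3d differed by -0.65 (SE 0.30). Tnfrsf4, Tnfrsf8, Cd27 and Tnfsf4, receptors and a ligand of lymphocyte costimulation, stayed under 4 in every array.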

How the data were processed

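Tumour RNA was hybridised to 14 Affymetrix mouse expression arrays, 7 per group. The authors deposited log2 values, for which the submitters' processing notes name GCRMA, and these ran from 2.12 to 14.3. Of 22690 probesets 64 controls were left out, and 12701 above 4 in at least 7 arrays were tested (limma 3.58.1, R 4.3.3, deficient against control, Benjamini-Hochberg over all tested). Single members also had a two-sided exact permutation test over 3432 splits, whose smallest p is 0.000583. The number of arrays limits precision, with a median SE of 0.18 over tested probesets. The labels do not say that arrays came from separate animals, so p-values measure only the spread between these arrays, which may be technical. Named members were the 12 with the smallest p, the 6 brightest and those present of 18 symbols fixed by function, of which Ripk1 had no single-symbol probeset. In each pathway list the 2 genes with the smallest p and the 1 brightest were named. Members and lists were chosen with earlier results of these data known. Other genes named here were singled out after their values were seen. Alternatives were other normalizations, filters, blocks, array weights and leaving out each array.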

Additional observations from a re-analysis of the deposited data

Results flagged for a closer look

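Among the 30 members above 4 in at least 1 array, 5 of 60 groups of 7 held an array far from the others by Dixon's test, where chance alone flags about 1 in 20 groups. Control 3 was the highest control for 3 receptor genes. It read 4.48 for Tnfrsf10b, with the next control at 3.20, 5.81 for Tnfrsf13c, with the next at 4.32, and 4.43 for Tnfrsf22, with the next at 2.77. Control 6 was the lowest control for Tnfsf9, at 6.46, with the next at 8.67. Control 4 was the highest control for Traf4, at 3.84, under the limit of signal, with the next at 3.24.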

How the results depend on the processing

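The count of members past the adjusted threshold was 0, and 0 to 1 when each array was left out (1 without control 4, Traf1). It was 9 with array weights (15.0% of all tested probesets) and 3 at an adjusted p under 0.25 (7.50%). The weights ran from 0.277 for deficient 1 to 4.15 for control 5. The count at an unadjusted p under 0.05 was 5, and 4 to 8 when each array was left out, 11 with array weights (32.3% of all tested probesets, against 14.7% without weights), 2 with leading numbers as a random block, and 8 without control 4 (18.8%) or without deficient 1 (18.2%). For the 51 tested pathway genes that count was 1, and 0 with leading numbers as a block or with no filter. In alternatives for these genes chosen after seeing the data it was 13 with array weights (32.3% of all tested probesets). It was 0 with the stricter filter, 3 with the replicate block and 0 to 7 when each array was left out. The pathway count was 7 without control 4 (18.8% of all tested probesets) and 6 without deficient 1 (18.2%). Array weights put 6 pathway genes past the adjusted threshold (15.0% of all tested probesets), and 0 passed in the other alternatives run. Across 19 named members, 456 alternative values included 440 that kept direction and side of the threshold, 10 newly past it and 6 with the sign turned. Some of these alternatives, among them the filters, the replicate block and the permutation test, leave the difference unchanged, so its sign could not turn. The permutation test also gave no adjusted p, so its values could not change side of the threshold. The turned values were Cd40, 0.00846 without deficient 3 and 6, Tnfrsf21, 0.18 with array weights and 0.13 without deficient 1 (-0.27 to 0.13 when each array was left out), and Tnfrsf1a, -0.029 to -0.011 without control 6, deficient 2 or deficient 7 (-0.029 to 0.15 when each array was left out). The cause was not tested. Replicate numbers were tried as a block. Same-numbered arrays had correlations of -0.23 to 0.22, and 0 of 14 arrays correlated best with their own number. No pairing by number was seen in these values, which cannot exclude a small shared effect. With this replicate block 0 members passed and 5 had an unadjusted p under 0.05.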
